A study of Mus musculus with 21 samples.

Results

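The genes described here are 40 genes of DNA replication and S phase, picked by symbol from the expression tables of a study of mouse macrophages and liver given bacterial lipopolysaccharide (LPS). All 40 are listed among the 35550 genes of the cell line tables, and 14 of them are among the 5298 genes listed for liver. The measured quantity is RNA abundance in TPM, a length-scaled share of each library's transcripts, in 21 libraries. RAW264.7, a mouse macrophage-like cell line that divides in culture, gave 14 of them. In the 24 h experiment unmodified cells received PBS, LPS (1 µg/mL) or LPS plus CTM (0.5 mM, the labels' abbreviation for the added compound), with 2 libraries in each group. In the 12 h experiment unmodified cells (WT) and cells with the vimentin gene knocked out (Vim-KO) each received PBS or LPS, again with 2 libraries in each group. The labels do not say whether the Vim-KO cells are 1 clone or several, or whether libraries of a group are separate cultures, so the p-values speak only of the spread among these libraries and that spread may be technical. The 7 liver libraries have 1 mouse liver sample per group, all from C57BL/6J mice with intraperitoneal treatment. WT mice were given PBS, LPS (30 mg/kg) or LPS (30 mg/kg) plus CTM (100 mg/kg). Other WT mice were given LPS with and without depletion of liver macrophages. TG2-KO mice, which lack transglutaminase 2, were given PBS or LPS (30 mg/kg). Age and the time from injection to collection are not used here, and the labels of the depletion pair give no LPS dose.

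DNA replication is prepared in G1, when the origin recognition complex, Cdc6 and Cdt1 load the ring of Mcm2 to Mcm7 proteins onto origins, and it starts when cyclin E kinase and Cdc7 kinase turn that ring into an active helicase with Cdc45 and the GINS subunits. Polymerases, the sliding clamp with its loader, and the enzymes that join lagging-strand fragments then copy the DNA while the nucleotide enzymes supply deoxynucleotides. Most of these genes are transcribed under E2F factors, which the RB family holds in check until cyclin-dependent kinases release them, and macrophages are known to leave the cell cycle when LPS activates them.

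All 10 macrophage markers reached at least 1 TPM in all 14 RAW264.7 libraries. Of 8 markers of other cells, 5 to 7 were listed at 0 in each of these libraries and their summed level stayed at or below 1.93 TPM. Vim, the targeted gene, was at 1930 and 1877 TPM in the PBS libraries of WT cells of the 12 h experiment and at 17 and 18.7 TPM in the Vim-KO PBS libraries. With LPS it was at 1375 and 1461 TPM in WT and at 30.8 and 33.0 TPM in Vim-KO cells. Tgm2, which encodes transglutaminase 2, was at 35.7 TPM in the WT PBS liver and 0.74 TPM in the TG2-KO PBS liver, and at 425 and 15.5 TPM under LPS. The RAW264.7 cells also differed by genotype in Tgm2, at 3.11 to 3.39 TPM in the WT libraries and 0.0508 to 0.55 TPM in the Vim-KO libraries of the 12 h experiment.

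Promoter sequence was not used to choose the genes, but most of them are known to be transcribed under E2F factors. A high share of short E2F-type words in their promoters is therefore not independent of the choice. In RefSeq (GRCm38.p6), 35 of the 40 genes matched promoter windows that run from 250 bases before a start to 50 after it. A gene with several starts has several windows, so these genes had 41, and a gene was counted if any of its windows held a word. Mcm4, Gins1, Gins2, Pole and Ccne2 had no entry. The 4 E2F-type words TTTCCCGC, TTTCGCGC, TTTGCCGC and TTTGGCGC were searched on both strands, and words on opposite strands can overlap. At least 1 word was present in 14 of the 35 genes (40%), against 704 of the 27025 genes of the whole table (2.6%). By window the shares were 34.1% and 2.26%. The word CCAAT, searched on both strands in the same windows, was present for 21 of the 35 genes (60%) and for 41.1% of all genes, or in 58.5% of their windows and 37.4% of all windows. These are matches of letters and not measured binding sites. The 200 bases before the start that the window uses are shown, 5' to 3' on the strand of the gene with E2F-type words in capitals. They are given for the gene with the most words (Mcm6), for another ring gene with an overlapping pair (Mcm5), and for strongly LPS-lowered genes with 1 word (Cdc6) and with none (Tk1). That start can lie inside the listed span of the gene. The Cdc6 bases lie wholly within its span (chr11:98907709-98923942). Those of Mcm5 (span from 75109468) and Tk1 (span to 117826087) lie partly within theirs.
Mcm6 (chr1:128359706-128359905, minus strand): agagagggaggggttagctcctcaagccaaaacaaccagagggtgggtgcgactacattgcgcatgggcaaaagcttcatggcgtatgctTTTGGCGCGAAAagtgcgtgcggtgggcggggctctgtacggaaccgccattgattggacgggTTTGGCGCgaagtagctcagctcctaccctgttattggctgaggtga
Mcm5 (chr8:75109309-75109508, plus strand): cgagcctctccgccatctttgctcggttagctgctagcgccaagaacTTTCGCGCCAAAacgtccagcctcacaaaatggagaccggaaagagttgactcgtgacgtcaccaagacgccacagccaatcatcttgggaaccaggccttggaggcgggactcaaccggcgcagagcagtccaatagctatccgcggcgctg
Cdc6 (chr11:98907951-98908150, plus strand): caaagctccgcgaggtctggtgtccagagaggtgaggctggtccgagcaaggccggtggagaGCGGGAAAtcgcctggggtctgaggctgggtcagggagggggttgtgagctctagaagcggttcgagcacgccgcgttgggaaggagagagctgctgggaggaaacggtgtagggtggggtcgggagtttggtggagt
Tk1 (chr11:117826015-117826214, minus strand): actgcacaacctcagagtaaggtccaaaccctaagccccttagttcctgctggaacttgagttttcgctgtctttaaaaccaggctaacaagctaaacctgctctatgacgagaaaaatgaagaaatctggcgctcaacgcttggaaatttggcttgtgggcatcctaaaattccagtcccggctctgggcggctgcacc
In Mcm6 the words begin 110, 106 and 47 bases before the start, and the first pair overlaps on opposite strands. The pair in Mcm5 begins 153 and 149 bases before the start and overlaps in the same way, and the word in Cdc6 begins 138 bases before it. The median log2 change with LPS at 24 h was -1.35 over the 14 genes with a word and -1.17 over the 21 without one. At 12 h these medians were -1.74 and -1.5 in WT cells and -1.68 and -1.64 in Vim-KO cells. The deepest falls at 12 h, -3.28 in WT and -3.76 in Vim-KO cells, belonged to a gene without a word (Tk1). These values are a description with no test.

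In resting cells the replication genes spanned a wide range of levels. At 24 h in PBS, Pcna, the sliding clamp that tethers the polymerase, was highest at 333 and 310 TPM. It was followed by Tk1, the thymidine kinase of the salvage pathway (204 and 193 TPM), and Mcm5 of the helicase ring (203 and 184 TPM), whose ranges overlapped. Orc1, a subunit of the origin recognition complex (11.5 and 10.4 TPM), E2f2, a transcription factor of the G1/S switch (15.8 and 17.5 TPM), and Cdc6, the loader of the ring (24.0 and 22.7 TPM), were lowest. All 40 genes passed the low-value filter (a mean of at least 1 TPM over an experiment) in both cell line experiments. Summed over the 40 genes, the level was 3334 and 3057 TPM under PBS at 24 h, 1258 and 1272 TPM under LPS, and 1623 and 1651 TPM under LPS plus CTM.

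**Figure D1:**
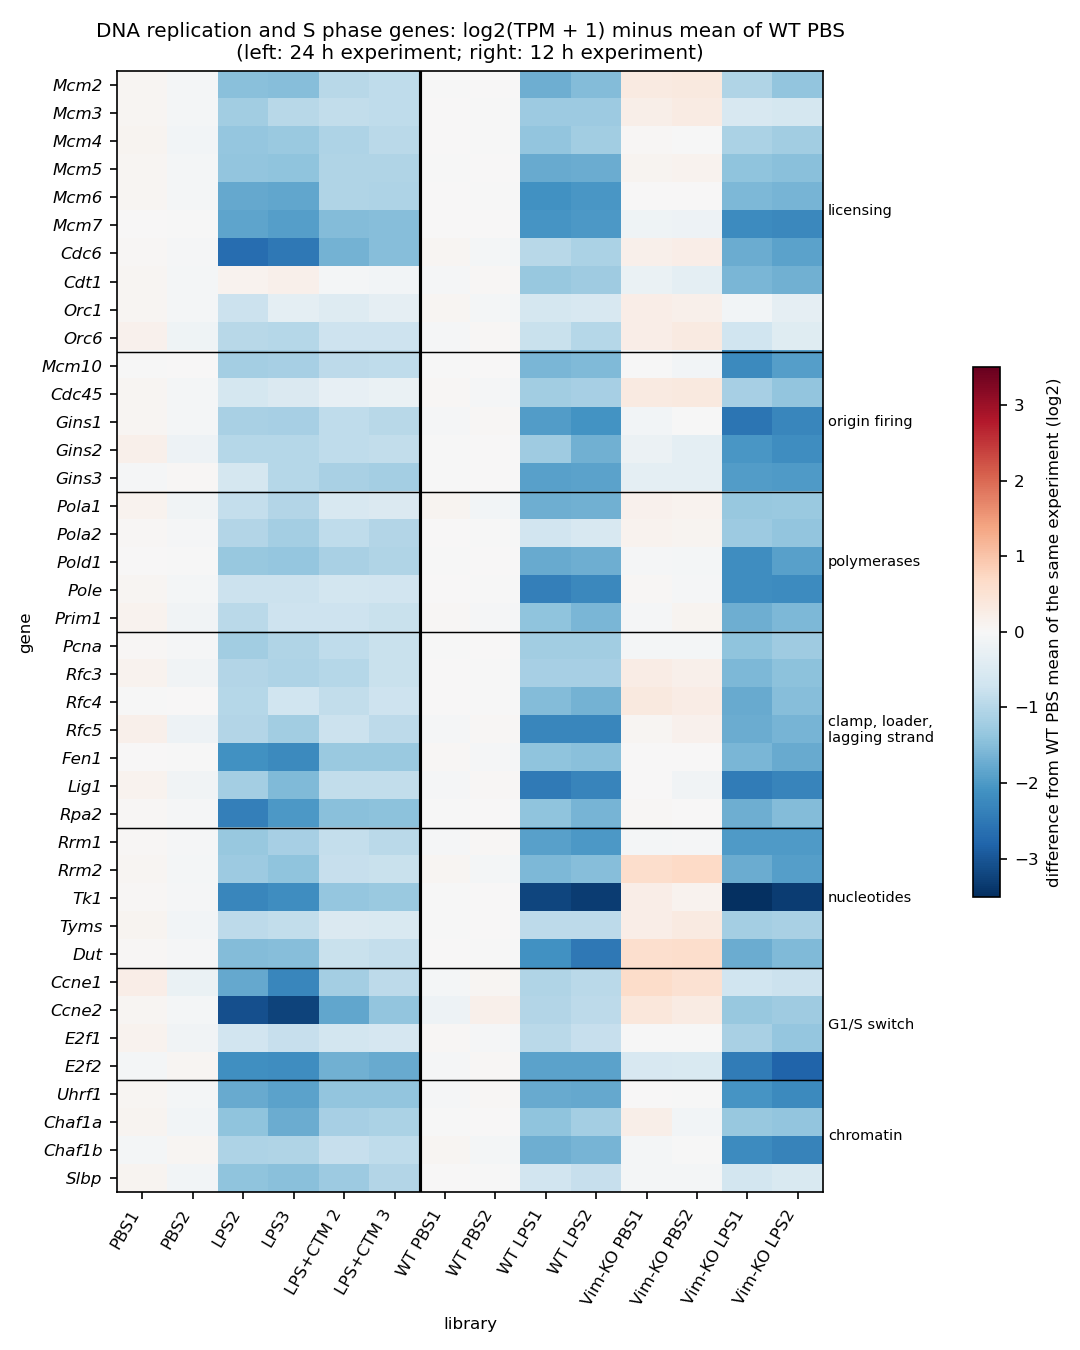
Log2(TPM + 1) of the 40 genes (rows, grouped by role) in the 14 RAW264.7 libraries (columns), each minus the mean of the WT PBS libraries of the same experiment. Blue cells are below that mean and red cells above it, and the LPS columns are below it for almost every gene, with Cdt1 at 24 h as the exception.

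LPS lowered nearly every replication gene by 24 h. Of the 40 genes, 39 passed the threshold downward (limma on log2(TPM + 1), adjusted p of 0.05 over all 11030 genes tested), 28 of them by at least 2-fold, and none upward, where 45.1% of all genes tested passed downward, 13.1% by at least 2-fold, and 20.9% upward. Their median log2 change was -1.21, beside -0.23 over all genes tested. TPM of a library share a fixed total, and rescaling the libraries by the median of gene-wise ratios moved the median of all genes by 0.24 in this comparison, by 0.16 for LPS plus CTM against PBS, by 0.35 and 0.24 for LPS against PBS in WT and Vim-KO cells at 12 h, and by -0.12 for the difference between those responses. After rescaling, 38 of the 40 genes were lower and 1 higher at 24 h with a median of -0.96, while all genes split into 31.6% higher and 30.6% lower. In bulk RNA, fewer cells in S phase and less RNA of these genes per cell cannot be told apart.

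The 2 largest falls at 24 h were those of Ccne2 and Cdc6, of the G1/S switch and origin licensing. Ccne2, a cyclin E that activates Cdk2 at S phase entry (chr4:11190433-11204779), was at 32.5 and 29.1 TPM under PBS and at 2.76 and 2.39 TPM under LPS. The groups lay far apart, LPS at 8.37% of PBS (log2 change -3.15 ± 0.172 SE, limma adjusted p = 6.53e-06). Cdc6 (chr11:98907709-98923942) fell from 24.0 and 22.7 TPM to 2.86 and 3.27 TPM, without overlap (-2.58 ± 0.129, adjusted p = 4.39e-06). Ccne1, the other cyclin E, was at 47.3 and 34.6 TPM under PBS and 11 and 7.57 TPM under LPS (-2.03 ± 0.204, adjusted p = 0.000115), so its spread between libraries was wider than for Ccne2. E2f2 fell by 2.16 on the log2 scale, to 2.97 and 2.94 TPM. E2f1, its relative, fell less, from 27.2 and 23.0 TPM to 15.4 and 13.8 TPM (-0.74 ± 0.116, adjusted p = 0.00106).

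The 6 ring genes all fell with LPS at 24 h. Mcm2 stood at 112 and 102 TPM under PBS and at 38.1 and 37.5 TPM under LPS, without overlap (-1.47 ± 0.0727, adjusted p = 4.25e-06). Mcm6, chr1:128331575-128359705, went from 157 and 144 TPM to 42.8 and 41.7 TPM, and Mcm7 from 173 and 170 TPM to 46.7 and 44.1 TPM. For Mcm6 the LPS libraries were closer to each other than the PBS libraries. Mcm3 (143 and 131 to 58.8 and 68.9 TPM), Mcm4 (87.7 and 76.4 to 31.3 and 32.6 TPM) and Mcm5 (203 and 184 to 73.2 and 72.4 TPM) also fell. Orc6, another origin recognition subunit, fell from 51.4 and 42.3 TPM to 23.5 and 23.0 TPM. Orc1 had a smaller change, from 11.5 and 10.4 TPM to 6.09 and 8.43 TPM, the LPS libraries being unlike each other (-0.55 ± 0.166, adjusted p = 0.0208), and it did not pass after rescaling or with 3 of the 6 libraries left out singly (adjusted p up to 0.106).

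Cdt1, which brings the ring to origins together with Cdc6 (chr8:122568015-122573130), was the exception at 24 h. Its level was 89.7 and 83.0 TPM under PBS and 93.8 and 97.6 TPM under LPS, the LPS libraries slightly above the PBS ones (0.15 ± 0.0656, adjusted p = 0.0844), and after rescaling it passed upward (0.40). With LPS plus CTM it was at 82.5 and 80.8 TPM.

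The genes of the moving fork fell as well. Fen1, the flap nuclease of the lagging strand, was at 93.3 and 93.2 TPM under PBS and at 20.8 and 19.1 TPM under LPS (-2.17 ± 0.0751, adjusted p = 8.58e-07). Rpa2, a subunit of the single-strand binding protein, went from 66.7 and 62.2 TPM to 11.5 and 15.1 TPM (-2.20 ± 0.126, adjusted p = 8.29e-06). Both dropped more than Pcna, which stayed among the most abundant of the genes at 137 and 154 TPM under LPS (-1.14 ± 0.0747, adjusted p = 1.54e-05), 45.2% of its PBS level. The clamp loader subunits Rfc3, Rfc4 and Rfc5 and the ligase Lig1 also passed downward, so that all 7 genes of this group did, with a median of -1.14. The 5 polymerase and primase genes (Pola1 and Pola2 of polymerase alpha, the catalytic subunits Pold1 and Pole of polymerases delta and epsilon, and the primase Prim1) all fell, by a median of 0.933 on the log2 scale. So did the 5 genes that build the active helicase (Mcm10, Cdc45, Gins1, Gins2 and Gins3), with a median of -0.99.

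Nucleotide supply and chromatin copying followed the same direction. Tk1 (chr11:117815519-117826087) was at 204 and 193 TPM under PBS and at 39.8 and 43.4 TPM under LPS, 21% of the PBS level (-2.23 ± 0.0693, adjusted p = 5.08e-07). Rrm2, the small subunit of ribonucleotide reductase (chr12:24708254-24714146), fell from 132 and 120 TPM to 51.6 and 46.6 TPM (-1.34 ± 0.0781, adjusted p = 8.97e-06). Its partner Rrm1, the thymidylate synthase Tyms and the dUTPase Dut passed too, and none of these genes had overlapping groups. Uhrf1, which carries DNA methylation over to the new strand, fell from 99.2 and 91.3 TPM to 27.4 and 25.4 TPM. The histone chaperone subunits Chaf1a and Chaf1b and the histone mRNA binding protein Slbp passed downward as well, and the median of these 4 genes was -1.50.

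**Figure D2:**
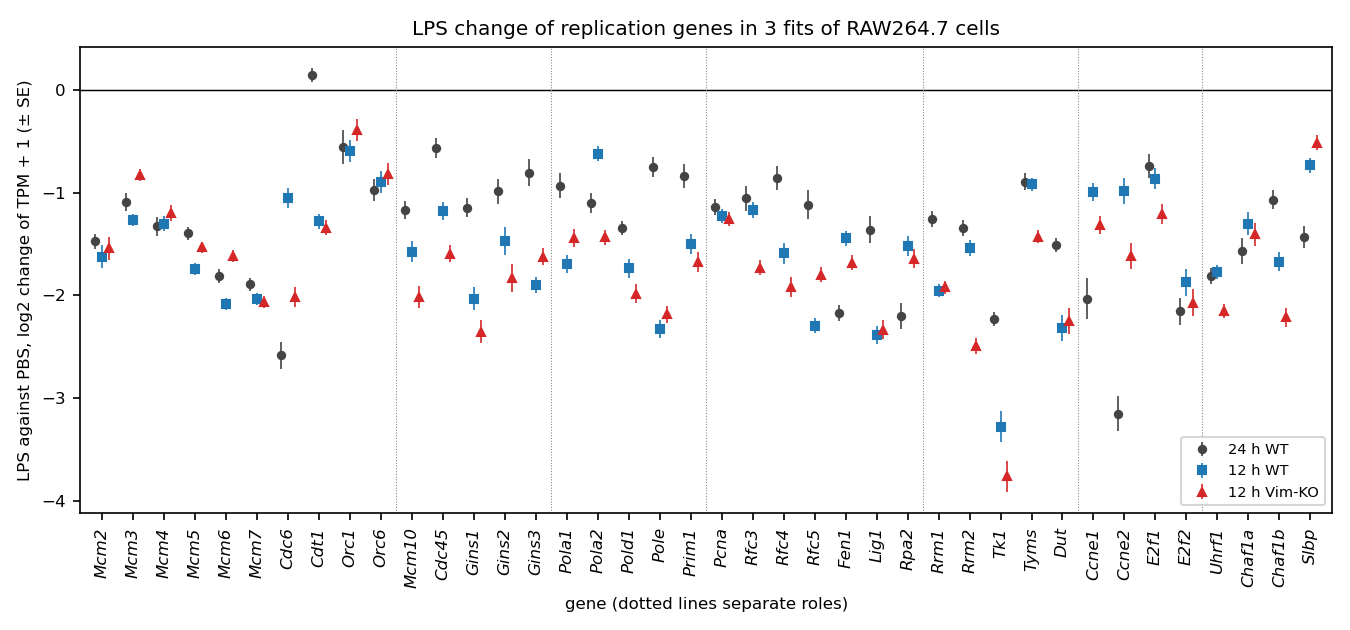
Log2 change in TPM + 1 from PBS to LPS with its standard error for each of the 40 genes, at 24 h in WT cells (black circles), at 12 h in WT cells (blue squares) and at 12 h in Vim-KO cells (red triangles). All points lie below 0 except Cdt1 at 24 h (0.15), and Ccne2 at 24 h (-3.15) and Tk1 at 12 h in Vim-KO cells (-3.76) are the lowest of their series.

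Adding CTM to LPS left part of the replication genes at higher levels than LPS alone at 24 h, and nearly all of them below PBS. Against LPS, 21 of the 40 genes were higher, 1 was lower and 18 did not pass, where 16.1% of all genes tested passed upward and 9.45% downward, and the median change was 0.32 beside 0.07 over all genes. After rescaling 14 were higher and 2 lower, with 11.5% and 14% of all genes. The count of higher genes was 13 without the CTM library headed 2 and 11 without the one headed 3. Against PBS, with the same CTM libraries, 37 of the 40 genes were lower and none higher (35.5% and 17.4% of all genes; after rescaling again 37 and none, with 22.8% and 26.1%), 16 of them by at least 2-fold (6.25% of all genes), with a median of -0.90 beside -0.16. These comparisons share libraries, so they are not independent of each other or of the one between LPS and PBS.

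The largest differences from LPS alone were those of Ccne2, Cdc6, Ccne1, Tk1 and Fen1. Ccne2 was at 7.97 and 11.3 TPM under LPS plus CTM, against 2.76 and 2.39 TPM under LPS and 32.5 and 29.1 TPM under PBS. The CTM libraries lay between the other groups without overlap (1.56 ± 0.172 against LPS, limma adjusted p = 0.00146), at 31.3% of PBS. Cdc6 was at 6.78 and 7.65 TPM, again between LPS and PBS (1.02 ± 0.129, adjusted p = 0.00243), at 30.9% of PBS. Ccne1 rose from 11 and 7.57 TPM to 17.3 and 20.8 TPM (0.98 ± 0.204, adjusted p = 0.0139), a call lost without the LPS library headed 3 (adjusted p = 0.0674) or the CTM library headed 3 (0.0831). The E2F genes did not pass: E2f1 was at 15.6 and 16.3 TPM (0.12 ± 0.116, adjusted p = 0.48) and E2f2 at 4.50 and 4.16 TPM (adjusted p = 0.0533).

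All 5 nucleotide supply genes were higher with CTM than with LPS alone, with a median of 0.54, and 3 of the 5 after rescaling, which removed Rrm1 and Tyms. Tk1 was at 77.4 and 80.1 TPM, between the LPS libraries (39.8 and 43.4 TPM) and the PBS libraries (0.91 ± 0.0693, adjusted p = 0.00048). Dut was at 77.4 and 75.2 TPM against 46.1 and 47.0 TPM under LPS (0.70 ± 0.065, adjusted p = 0.000778), and Rrm2 at 71.3 and 72.4 TPM (0.54 ± 0.0781, adjusted p = 0.00367). In each of these genes the LPS and CTM libraries did not overlap. Among the fork genes, Fen1 was at 37.1 and 37.3 TPM (0.87 ± 0.0751, adjusted p = 0.000656), Rpa2 at 22.7 and 23.1 TPM and Lig1 at 50.1 and 50.2 TPM. Pcna was at 174 and 186 TPM (0.31 ± 0.0747, adjusted p = 0.0235), which did not pass after rescaling (0.106), without the LPS library headed 2 (0.0846) or without the CTM library headed 2 (0.0569) or 3 (0.135).

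The licensing genes were divided. Mcm2 (54.5 and 56.8 TPM; 0.55 ± 0.0727, adjusted p = 0.00283), Mcm6 (71.3 and 70.0 TPM; 0.73 ± 0.0676, adjusted p = 0.000785), Mcm4, Mcm5, Mcm7 and Cdc6 were higher than with LPS alone, 6 of the 10 and 5 of the 10 after rescaling. The call for Mcm4 was lost after rescaling (limma adjusted p = 0.116) and with 4 of the 6 libraries left out singly (up to 0.22), and that for Mcm5 without the CTM library headed 3 (0.0663). Mcm3, at 74.9 and 73.5 TPM, Orc1 and Orc6 did not pass. Cdt1 was the gene called lower (-0.23 ± 0.0656, adjusted p = 0.0429), a call lost with any 1 of the 6 libraries left out (adjusted p from 0.0547 to 0.184). Only Cdc45 of the 5 helicase-building genes, and only Pold1 of the 5 polymerase genes, passed, and neither did after rescaling. Gins3, at 11.9 and 11.4 TPM with CTM against 17.3 and 13.2 TPM under LPS, did not pass, and passed as lower after rescaling and without the LPS library headed 3. Uhrf1 and Chaf1a completed the 21 genes. Of the 22 calls, 10 held with each single library left out, Ccne2, Cdc6, Tk1, Fen1, Mcm6 and Dut among them.

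Compared with PBS, E2f2 remained furthest down with CTM (-1.72 ± 0.134, adjusted p = 6.75e-05), followed by Ccne2 (-1.60), Cdc6 (-1.57), Mcm7 (-1.50) and Rpa2 (-1.45). Mcm7 was at 59.4 and 60.6 TPM in these libraries, far under its PBS level of 173 and 170 TPM. For the other genes followed throughout, the change from PBS was -1.32 for Tk1, -1.05 for Ccne1, -0.93 for Mcm2, -0.83 for Pcna, -0.80 for Rrm2 and -0.62 for E2f1. The 3 genes that did not pass were Cdt1, Orc1 (7.68 and 8.69 TPM) and Cdc45 (26.5 and 27.4 TPM, against 34.1 and 30.5 TPM under PBS).

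**Figure D3:**
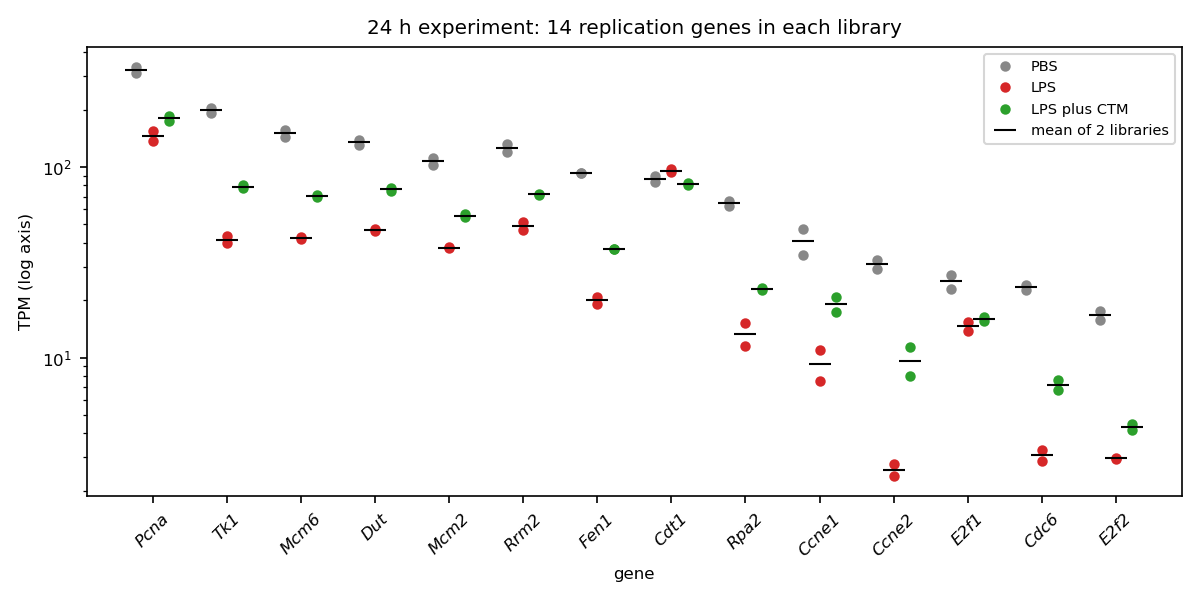
TPM on a log axis of 14 genes in the 24 h libraries with PBS, LPS and LPS plus CTM. Each point is 1 library and each line the mean of 2, and the CTM points of Tk1, Fen1 and Ccne2 lie between those of LPS and PBS.

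LPS lowered the genes at 12 h too, in an experiment whose table was normalized separately. In WT cells all 40 genes passed downward, 32 by at least 2-fold, and none upward, where 53.1% of the 11115 genes tested passed downward, 18.1% by at least 2-fold, and 17.8% upward. Their median was -1.53 beside -0.35 over all genes. After rescaling 39 passed downward, with 31.8% of all genes lower and 33.4% higher, and Orc1 was the gene lost. The summed level of the 40 genes was 4060 and 4092 TPM under PBS and 1371 in each LPS library. Of 10 neutrophil markers, 2 reached 1 TPM in the WT LPS libraries with sums of 911 and 895 TPM, against at most 1.75 TPM under PBS and 13.9 and 13.8 TPM in Vim-KO cells with LPS. Nearly all of the WT LPS sums came from 1 gene, S100a8, at 908 and 892 TPM, and S100a9 was at 2.19 and 2.77 TPM. Ly6g, Retnlg, Ltf, Ngp and Elane were listed at 0 in both WT LPS libraries. The part of these markers in the result was not tested.

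The 5 largest falls in WT cells at this time were those of Tk1, Lig1, Pole, Dut and Rfc5. Tk1 was at 179 and 182 TPM under PBS and at 18.4 and 17 TPM under LPS, 9.81% of the level (-3.28 ± 0.15, limma adjusted p = 7.09e-07). Lig1, which seals the nicks between fragments, fell from 118 and 124 TPM to 21.0 and 23.8 TPM (-2.39 ± 0.0901, adjusted p = 2.63e-07). Pole fell from 45.1 and 44.7 TPM to 7.68 and 8.63 TPM (-2.33 ± 0.0837, adjusted p = 2.05e-07), Dut from 126 and 122 TPM to 27.8 and 20.9 TPM (-2.31 ± 0.126), and Rfc5 from 103 and 108 TPM to 20.7 in both LPS libraries (-2.29 ± 0.0714). None of these groups overlapped. Rrm2 (204 and 189 to 65.1 and 68.8 TPM, -1.54), Mcm2 (116 and 120 to 35.2 and 40.4 TPM, -1.62) and Pcna (472 and 481 to 203 in both, -1.23) fell less.

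Of the 4 G1/S genes, E2f2 fell by more than the median of the 40 genes at 12 h and the other three by less. E2f2 went from 19.6 and 20.6 TPM to 4.76 TPM in both LPS libraries (-1.87 ± 0.129, limma adjusted p = 6.06e-06). Ccne1 fell from 46.3 and 51.2 TPM to 22.9 and 25.0 TPM (-0.995 ± 0.0852), Ccne2 from 33.9 and 44.2 TPM to 18.4 and 19.9 TPM (-0.98 ± 0.125), and E2f1 from 28.5 and 27.4 TPM to 14.1 and 15.7 TPM (-0.86 ± 0.101). Cdc6 fell from 30.9 and 27.5 TPM to 14.3 and 12.9 TPM, by 1.05 on the log2 scale. Cdt1, unlike at 24 h, passed downward, from 123 and 132 TPM to 50.4 and 53.7 TPM (-1.28 ± 0.0734, adjusted p = 2.27e-06). The 12 h and 24 h values come from different experiments, and the difference between them was not tested.

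In Vim-KO cells LPS again lowered all 40 genes, 36 of them by at least 2-fold, and none rose (45.8%, 14.9% and 20.5% of all genes tested), with a median of -1.66 beside -0.23. After rescaling 39 were lower, without Orc1, with 31.9% of all genes lower and 32.4% higher. The summed level was 4395 and 4368 TPM under PBS and 1369 and 1384 TPM under LPS. Tk1 fell from 212 and 196 TPM to 11.6 and 17.1 TPM (-3.76 ± 0.15, adjusted p = 3.47e-07), 7.04% of the PBS level. Rrm2 fell from 304 and 316 TPM, the highest Rrm2 values of the 12 h experiment, to 57.7 and 51.1 TPM, among its lowest (-2.49 ± 0.0769, adjusted p = 9.95e-08). Gins1, a subunit of the active helicase, fell from 47.1 and 50.2 TPM to 7.79 and 9.70 TPM, Lig1 from 123 and 111 TPM to 21.4 and 23.4 TPM (-2.33), and Dut from 187 and 192 TPM to 36.4 and 41.9 TPM (-2.25). Changes of Ccne2 (-1.62), Mcm2 (-1.54), Pcna (-1.26) and E2f1 (-1.21) were nearer the median.

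Before LPS the genotypes differed in 12 of the 40 genes. With PBS, 9 of the 40 were higher in Vim-KO than in WT cells and 3 were lower, where 17.7% of all genes tested were higher and 25.4% lower. After rescaling 11 were higher and 3 lower, with 21.2% and 23%. The counts of higher genes lay near the shares of all genes, and those of lower genes lay below them. Taking both directions, 4782 of the 11115 genes tested differed by genotype with PBS, a larger share than among the 40 genes. Rrm2 was at 304 and 316 TPM in Vim-KO and 204 and 189 TPM in WT cells, 158% of the WT level (0.66 ± 0.0769, limma adjusted p = 0.000338). Dut was at 187 and 192 TPM against 126 and 122 TPM (0.61 ± 0.126, adjusted p = 0.00593), and Ccne1 at 76.9 and 70.5 TPM against 46.3 and 51.2 TPM (0.59 ± 0.0852, adjusted p = 0.00103). These 3 genes had the largest upward differences, and their groups did not overlap. Mcm2 was at 148 and 149 TPM against 116 and 120 TPM (0.33 ± 0.114, adjusted p = 0.0499), a call lost with 6 of the 8 libraries left out singly. Of the rest, Cdc45, Rfc4, Tyms, Mcm3 and Rfc3 also passed, by 0.23 to 0.33.

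Lower in Vim-KO cells with PBS were E2f2, at 13.2 and 13.5 TPM against 19.6 and 20.6 TPM (-0.56 ± 0.129, adjusted p = 0.00987), Gins3, at 23.2 and 22.8 TPM against 28.9 and 30.0 TPM, and Cdt1, at 108 and 100 TPM against 123 and 132 TPM. Tk1 (adjusted p = 0.379), Ccne2 (0.0636), Pcna (0.4) and E2f1 (0.89) did not pass. Rrm2, Dut and Ccne1 were the 3 of the 12 calls that held with each single library left out. The count of higher genes was 3 or 4 without either WT PBS library and 5 or 3 without either Vim-KO PBS library. The count of lower genes was 0 without the WT PBS library numbered 2 and 1 without either Vim-KO PBS library.

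With LPS the genotypes differed in 26 of the 40 genes, in both directions: 10 were higher in Vim-KO cells and 16 lower, where 24.1% of all genes tested were higher and 20.6% lower. After rescaling 8 were higher and 17 lower, with 20.5% and 25.6% of all genes. The counts of higher genes lay near the shares of all genes, before and after rescaling. Of the 26 calls, 15 held with each single library left out, and the count of lower genes was 10 without the WT LPS library numbered 2. With the samples of this comparison alone in the fit, 6 were higher and 8 lower. The helicase ring genes were divided. Mcm3 was at 109 and 105 TPM in Vim-KO and 66.9 and 67.0 TPM in WT cells (0.67 ± 0.0583, adjusted p = 7.3e-05), Mcm6 at 68.4 and 65.4 TPM against 46.2 and 48.9 TPM (0.48 ± 0.0593, adjusted p = 0.000422), and Mcm2 at 56.7 and 44.7 TPM against 35.2 and 40.4 TPM (0.41 ± 0.114, adjusted p = 0.021), a call lost with 2 of the 8 libraries left out singly (adjusted p up to 0.121). Mcm5 was higher by 0.31, at 93.8 and 90.1 TPM against 73.1 and 74.4 TPM. Mcm4 did not pass (0.13), and Mcm7 was lower, at 40 and 38.4 TPM against 44.2 and 45.8 TPM, a call lost with 7 of the 8 libraries left out singly (adjusted p up to 0.125). So 4 of the 6 ring genes were higher, 1 lower and 1 not called.

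Outside the ring, Dut was higher in Vim-KO cells with LPS, at 36.4 and 41.9 TPM against 27.8 and 20.9 TPM (0.68 ± 0.126, adjusted p = 0.00357). Rfc5 was at 30.8 and 33.6 TPM against 20.7 in both WT libraries (0.61 ± 0.0714, adjusted p = 0.000317). The remaining higher genes were Orc1 (11.6 and 9.82 TPM against 7.68 and 8.01 TPM), Pola1 (13.0 and 13.2 TPM against 9.60 and 9.93 TPM), Orc6 (36.1 and 43.8 TPM against 33.5 and 28.9 TPM) and Ccne1 (29.7 and 28.3 TPM against 22.9 and 25.0 TPM). Orc6 and Ccne1 did not pass after rescaling.

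The largest lower values with LPS belonged to Cdc6, E2f2 and Pola2. Cdc6 was at 8.05 and 7.17 TPM in Vim-KO and 14.3 and 12.9 TPM in WT cells (-0.76 ± 0.0989, adjusted p = 0.000579). Its PBS levels were 33.4 and 34.1 against 30.9 and 27.5 TPM, a difference that did not pass. E2f2 was at 2.85 and 2.03 TPM against 4.76 in both WT libraries (-0.75 ± 0.129, adjusted p = 0.0023). Pola2, the accessory subunit of polymerase alpha (chr19:5940543-5964238), was at 28.0 and 25.7 TPM against 42.6 and 46.5 TPM (-0.71 ± 0.0746, adjusted p = 0.000193). Rrm2, which was higher in Vim-KO cells with PBS, was lower with LPS (57.7 and 51.1 against 65.1 and 68.8 TPM, -0.30 ± 0.0769, adjusted p = 0.0155). That lower call was lost with 2 of the 8 libraries left out singly (adjusted p up to 0.0852). The others were Gins2 (-0.64), Chaf1b (-0.59), Mcm10 (-0.50), Gins1, Uhrf1, E2f1 (-0.36), Cdt1 (-0.35), Rfc3, Pold1, Tyms, Fen1 and Mcm7. Pcna (-0.10), Tk1 (-0.31) and Ccne2 (-0.30) did not pass.

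The difference between the LPS responses was tested with the interaction term of the same model. In 12 of the 40 genes the response differed between Vim-KO and WT cells, 9 with a more negative change in Vim-KO and 3 with a less negative one, where 6.96% of all genes tested were more negative and 13.7% more positive. After rescaling these were 13 and 3 genes, with 11.5% and 9.84% of all genes, the additional ones being Ccne1, E2f1, Fen1 and Mcm10. Cdc6 (-0.97 ± 0.14, limma adjusted p = 0.00278) and Rrm2 (-0.95 ± 0.109, adjusted p = 0.000821) had the largest differences. For Rrm2 LPS took the level to 34.1% of PBS in WT cells and 17.6% in Vim-KO cells. Pola2 (-0.82 ± 0.105, adjusted p = 0.00155) fell from 69.9 and 68.0 TPM under PBS to 42.6 and 46.5 TPM in WT cells, and from 74.5 and 74.2 TPM to 28.0 and 25.7 TPM in Vim-KO cells. Its LPS groups lay far apart, while the difference between its PBS groups did not pass.

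Ccne2 (-0.63 ± 0.177, adjusted p = 0.0405), Rfc3 (-0.56 ± 0.107, adjusted p = 0.00997), Chaf1b (-0.54), Tyms (-0.51), Cdc45 (-0.41) and Uhrf1 (-0.38) were the other genes with a deeper fall. Rfc3 went from 45.7 and 44.3 TPM to 19.4 and 19.6 TPM in WT cells and from 54.4 and 51.5 TPM to 14.6 and 15.9 TPM in Vim-KO cells, so its genotype order differed between PBS and LPS. The less negative ones were Rfc5 (0.50 ± 0.101, adjusted p = 0.0127), Mcm6 (0.47 ± 0.0839, adjusted p = 0.00717) and Mcm3 (0.43 ± 0.0825, adjusted p = 0.00976). Mcm3 went from 163 and 161 TPM to 66.9 and 67.0 TPM in WT cells and from 186 and 197 TPM to 109 and 105 TPM in Vim-KO cells. The calls of Cdc6, Rrm2, Pola2, Mcm3, Mcm6, Rfc3 and Tyms held with each single library left out. Rfc5 was lost without the WT PBS library numbered 2 (adjusted p = 0.0613) or the Vim-KO PBS library numbered 1 (0.0548). Chaf1b was lost in 4 of the 8 exclusions, Ccne2 and Uhrf1 in 6 and Cdc45 in 7, with adjusted p up to 0.157. The count of deeper falls was 5 without the Vim-KO PBS library numbered 1 and 5 without the one numbered 2. For Tk1 (-0.48 ± 0.213, adjusted p = 0.151), E2f1 (-0.34, adjusted p = 0.13), Ccne1 (-0.32, adjusted p = 0.102), Mcm2 (0.08, adjusted p = 0.764) and Pcna (-0.03, adjusted p = 0.859) the interaction did not pass.

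**Figure D4:**
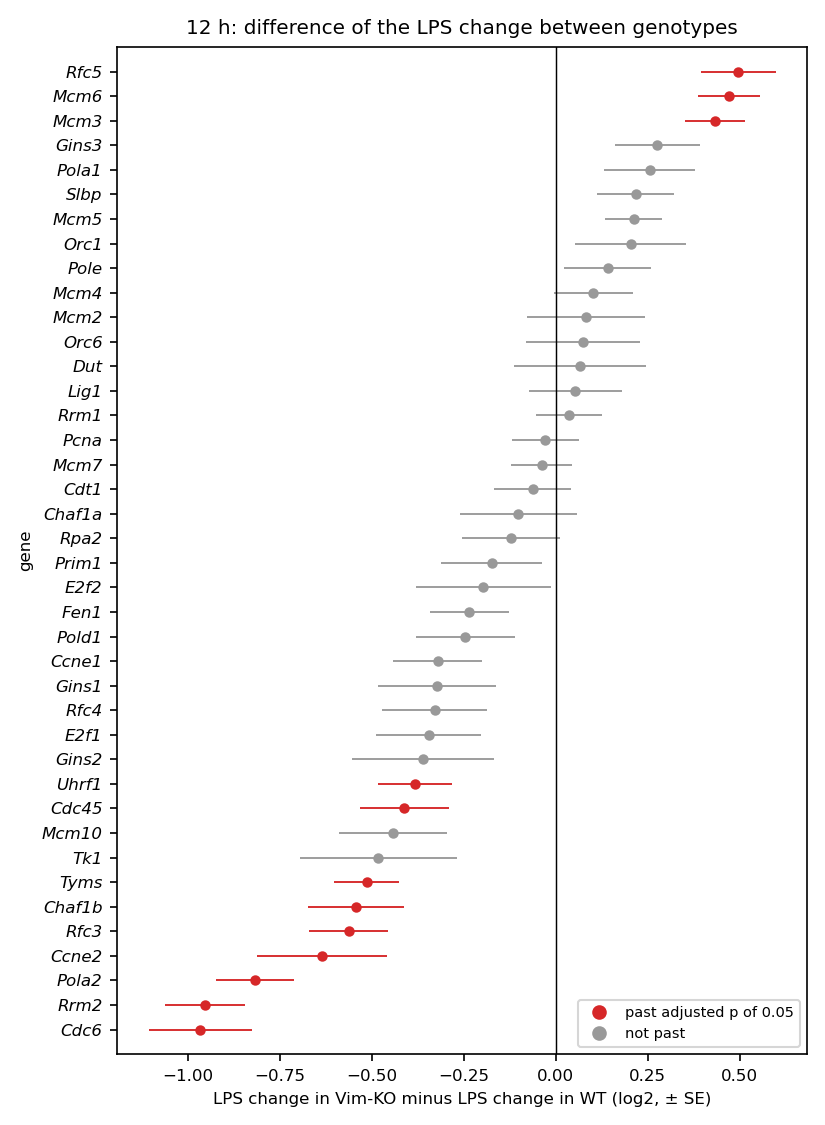
Difference in the log2 LPS change at 12 h, Vim-KO minus WT, with its standard error for the 40 genes. Red points passed the threshold: 9 lie below 0, Cdc6 (-0.97) and Rrm2 (-0.95) lowest, and 3 above it (Rfc5, Mcm6 and Mcm3).

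Most other genes of the replication pathway also fell with LPS. Of 41 further replication genes, 37 were lower with LPS at 24 h and 2 higher, where 45.1% of all genes tested were lower and 20.9% higher. After rescaling 31 were lower and 3 higher, with 30.6% and 31.6% of all genes. At 12 h 38 were lower in WT and 37 in Vim-KO cells, with 53.1% and 45.8% of all genes. Gmnn, the inhibitor of Cdt1, was at 92.8 and 93.4 TPM under PBS and 25.7 and 26.5 TPM under LPS at 24 h (-1.80 ± 0.0774, adjusted p = 2.25e-06). With CTM it was at 43.5 and 39.3 TPM, between the other groups. At 12 h its LPS level was 29.1 and 26.8 TPM in WT and 16.2 and 17.1 TPM in Vim-KO cells. Pold4, a small subunit of polymerase delta, went the other way, from 48.5 and 50.6 TPM to 88.7 and 92.8 TPM at 24 h (0.86 ± 0.0685, adjusted p = 3.85e-05). Of 22 genes of purine, pyrimidine and folate synthesis, 15 were lower and 4 higher at 24 h (15 and 7 after rescaling), beside the same shares of all genes. The higher counts lay near those shares. Mthfd2, a mitochondrial folate enzyme, was the furthest up (66.2 and 58.5 TPM to 178 and 173 TPM).

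The upstream switch showed both directions. Of 17 E2F, RB and DREAM genes, 10 were lower with LPS at 24 h, and 17 and 14 at 12 h in WT and Vim-KO cells, where 45.1%, 53.1% and 45.8% of all genes tested were lower. After rescaling 10, 11 and 13 were lower, with 30.6%, 31.8% and 31.9% of all genes, and 1 was higher in Vim-KO cells. E2f8, an E2F that represses, fell from 40.5 and 32.8 TPM to 5.38 and 4.88 TPM at 24 h (-2.61 ± 0.131, adjusted p = 4.41e-06). Ccnd1, the D-type cyclin of early G1, fell from 226 and 227 TPM to 91.0 and 75.2 TPM under LPS and was at 151 and 167 TPM with CTM. Its levels thus followed the order seen for Tk1 and Fen1. Myc, a growth transcription factor, rose from 0.856 and 1.04 TPM to 17.9 and 19.2 TPM at 24 h (3.33 ± 0.136, adjusted p = 1.84e-06) and was lower with CTM, at 11.6 and 13.0 TPM.

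Of the inhibitors of cyclin-dependent kinases that were tested, Cdkn1b, Cdkn2d and Cdkn2c were lower with LPS in WT cells. At 24 h Cdkn1b went from 37.1 and 39.6 TPM to 15.9 and 13.8 TPM. Cdkn2d went from 20 and 16.2 TPM to 10 and 9.62 TPM. At 12 h in WT cells the log2 changes of the named genes were -0.85, -1.19 and -2.40. Cdkn1a, the inhibitor that also binds Pcna, rose with LPS in each experiment. At 24 h it was at 157 and 161 TPM under PBS, 588 and 575 TPM under LPS, and 364 and 359 TPM under LPS plus CTM (1.86 ± 0.0453 for LPS against PBS, adjusted p = 1.72e-07; -0.69 ± 0.0453 for CTM against LPS, adjusted p = 0.00037). At 12 h it went from 382 and 378 TPM to 498 and 566 TPM in WT cells and from 229 in both libraries to 1550 and 1421 TPM in Vim-KO cells. The interaction was 2.21 ± 0.105 (adjusted p = 1.92e-05), so Vim-KO cells started lower and ended higher. Rbl2, an RB relative that represses E2F targets in resting cells, differed as well: it fell from 35.7 and 36.4 TPM to 6.18 and 7.91 TPM in WT cells, and was at 20.7 and 18.7 TPM under PBS and 18.3 and 17 TPM under LPS in Vim-KO cells (interaction 2.06 ± 0.166, adjusted p = 0.000148).

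Mitotic genes fell beside the replication genes. Of 24 mitosis genes, 22 were lower with LPS at 24 h, with a median of -1.16, and all 24 at 12 h in both genotypes, with medians of -2.76 and -2.96. Among all genes tested, 45.1% were lower at 24 h, and 53.1% and 45.8% at 12 h in WT and Vim-KO cells. Mki67, the proliferation marker Ki-67, was at 167 and 153 TPM under PBS, 52.2 and 47.6 TPM under LPS and 65.8 and 61.9 TPM under LPS plus CTM at 24 h. At 12 h it fell from 219 and 213 TPM to 22.5 and 24.4 TPM in WT and from 208 and 202 TPM to 15.5 and 12.7 TPM in Vim-KO cells. With CTM, 11 of the 24 mitosis genes were higher than with LPS alone and none lower, where 16.1% of all genes tested were higher and 9.45% lower. After rescaling 5 were higher and 1 lower, with 11.5% and 14% of all genes.

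In liver, the 14 listed genes were at low levels, and no test was possible with 1 library per group. All 5064 listed genes above 0 in both WT libraries differ by at least 2-fold between WT LPS and WT PBS, so the WT difference chose the list and is given as a description. From WT PBS to WT LPS, Tk1 went from 19.7 to 1.73 TPM, Mcm10 from 20.9 to 2.06 TPM, Rrm2 from 2.39 to 0.21 TPM, Dut from 2.35 to 0.26 TPM, Cdt1 from 2.00 to 0.15 TPM and E2f1 from 1.85 to 0.19 TPM. These 6 were lower by at least 1 on the log2(TPM + 1) scale (46.3% of listed genes), and Fen1, the one listed gene that was higher, went from 1.22 to 3.57 TPM (20.6% of listed genes were higher). Rfc5 (2.74 and 0.91 TPM), Rrm1 (2.13 and 0.96 TPM), Tyms (1.43 and 0.59 TPM), Mcm2 (0.80 and 0.19 TPM), Pold1 (0.79 and 0.15 TPM), Ccne2 (0.48 and 0.06 TPM) and Pole (0.40 and 0.08 TPM) were under 3 TPM in both libraries. Apart from Tk1 and Mcm10, all listed genes stayed below 4 TPM in all 7 livers.

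The liver with LPS plus CTM had no call on these genes. With LPS plus CTM Tk1 was at 1.07 TPM, Mcm10 at 2.37 TPM, Fen1 at 3.06 TPM and Cdt1 at 0.16 TPM, and none of the 14 genes differed from LPS alone by 1 or more in either direction (0.698% of listed genes were higher and 0.887% lower). With 1 library per group, smaller differences could not be assessed. A gene below 1 TPM cannot fall by 1 on the log2(TPM + 1) scale. In the WT LPS liver that held for all of the 14 genes but Mcm10, Fen1 and Tk1, so they could not be called lower with CTM. The LPS livers with and without macrophages also had no gene past that size (2.59% and 6.25% of listed genes): Tk1 was at 6.33 TPM without depletion and 4.06 TPM with it, Mcm10 at 4.90 and 3.03 TPM, and Rfc5 at 1.63 and 0.57 TPM. Mcm2, Cdt1, Pold1, Pole, Tyms, Dut, Ccne2 and E2f1 were below 1 TPM without depletion and so could not be called lower with it. Clec4f, a marker of Kupffer cells, was at 12.3 TPM without depletion and 0.21 TPM with it. The sum of the 6 neutrophil markers listed for liver, of 10, was 114 TPM without and 234 TPM with depletion, and its part in these values was not tested.

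In TG2-KO livers Tk1 was at 10.2 TPM under PBS and 3.09 TPM under LPS, Rrm2 at 3.84 and 0.87 TPM, and Mcm10 at 9.17 and 3.80 TPM. These 3 were lower by at least 1 and none was higher (17.1% and 14.8% of listed genes). Against WT with PBS, Mcm10 was the gene past that size, at 9.17 and 20.9 TPM (-1.11). Among all listed genes 4.76% were lower and 2.94% higher. With LPS none of the replication genes was past it (2.04% and 4.27% of listed genes). Those other than Mcm10, Fen1 and Tk1 were below 1 TPM in the WT LPS liver and could not be called lower. The sum of the 2 erythroid markers listed, of 4, was 152 TPM in the TG2-KO and 1013 TPM in the WT PBS liver, and that of the 6 neutrophil markers was 28.1 and 1.37 TPM. Their part in the Mcm10 difference was not tested. The labels give the WT and TG2-KO livers different RNA extraction dates, so date and genotype cannot be told apart. Cdkn1a, listed as well, was at 1.80 TPM in the WT PBS liver and 278 TPM in the WT LPS liver.

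**Figure D5:**
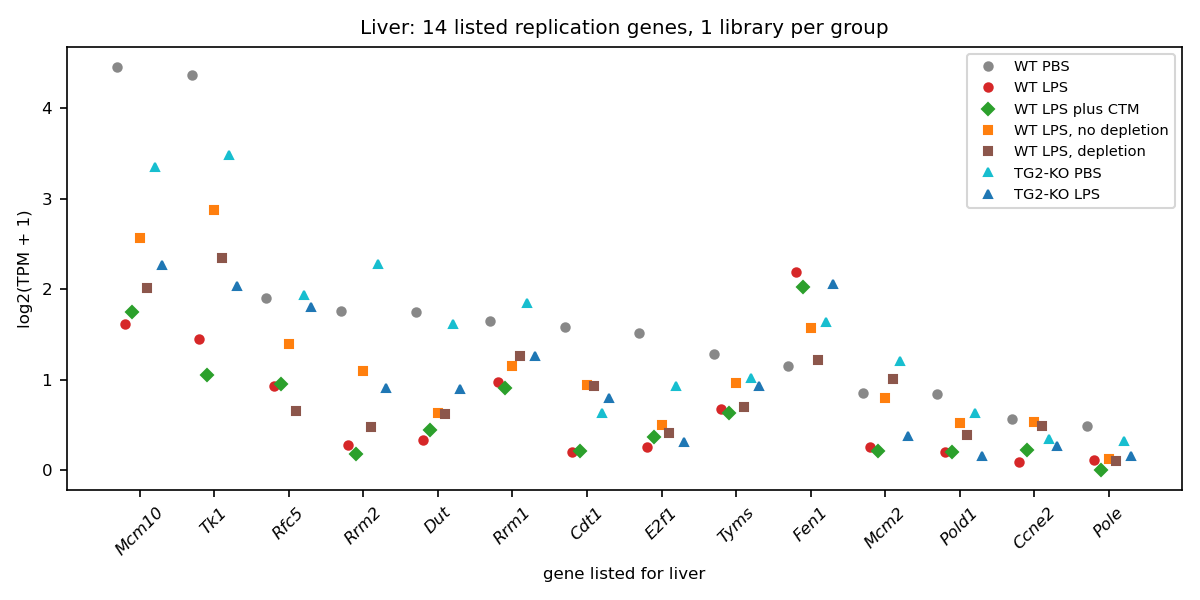
Log2(TPM + 1) of the 14 listed genes in the 7 liver libraries, 1 library per group. Tk1 and Mcm10 start highest in the WT PBS liver (19.7 and 20.9 TPM), and Fen1 is the gene that is higher with LPS.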

How the data were processed

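RNA was sequenced from 14 RAW264.7 and 7 liver libraries with a stranded, poly(A)-selected kit, per the labels' protocols. The values are TPM as deposited: the authors quantified reads with Salmon on the mouse build mm10 (GRCm38), per the submitters' processing notes, and its version is not given in the sources used here. The 24 h, 12 h and liver tables were made separately and were compared only within a table. Since TPM hold no reads, library depth is unknown and no counting interval can be given. TPM of a library summed to between 993387 and 999191 in the cell line tables, and replicate libraries correlated at r of 0.9856 to 0.9904 across genes.

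Genes averaging 1 TPM or more over an experiment were tested with limma 3.58.1 (R 4.3.3) on log2(TPM + 1) with a mean-variance trend, all groups of an experiment in 1 fit, and Benjamini-Hochberg adjustment over all genes tested (threshold 0.05). Fold changes are on the log2(TPM + 1) scale, which understates changes of low genes. Errors given as ± are standard errors from that fit. Liver differences were computed on the same scale without a test, and called at 1 or more. The column heads of the 24 h LPS and CTM libraries (2 and 3) and the numbers in the labels differ, so these columns were assigned to their groups only. Tables were made with Python 3.11.15, pandas 2.3.3 and numpy 2.4.6, and figures with matplotlib 3.10.9.

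The 40 genes and the further lists (replication machinery, E2F, RB and DREAM factors, G1 cyclins, inhibitors of cyclin-dependent kinases, nucleotide synthesis, checkpoint, mitosis and cell type markers) were chosen with earlier results of these data known. Values per library are mainly given for the 5 largest changes of each comparison and for genes against the majority. They are also given for genes that did not pass where these were 6 or fewer, and for every gene listed for liver. Pcna, Mcm2, E2f1, Ccne1, Ccne2, Rrm2 and Tk1 were followed throughout. In some comparisons these genes and others have only a log2 change or an adjusted p. Other genes with values per library were chosen after their values were seen. On simulated data with 200 changed genes the fit recovered 78% of changes of size 1 and 95% of size 2 at 24 h. Of 178 calls, 5 were false. At 12 h the shares were 88% and 99%, with 10 false calls of 197. In the data many more genes passed for LPS against PBS, 7277 of 11030 at 24 h and 7881 of 11115 in WT cells at 12 h. How the fit performs with that many changes was not tested. Alternatives were a pseudocount of 0.1, no filter on low values or a stricter one at 5 TPM, scaling by the median of ratios, no trend, only the samples of a comparison, a replicate block, each library left out and a minimum log2 change of 1.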

Additional observations from a re-analysis of the deposited data

Results flagged for a closer look

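In 12 of the 40 genes the LPS response at 12 h differed between Vim-KO and WT cells by the interaction term of limma (2 libraries per group). A negative value means a more negative LPS change in Vim-KO cells. The values on the log2(TPM + 1) scale were -0.97 for Cdc6, -0.95 for Rrm2, -0.82 for Pola2, -0.63 for Ccne2, -0.56 for Rfc3, -0.54 for Chaf1b, -0.51 for Tyms, -0.41 for Cdc45 and -0.38 for Uhrf1. They were 0.50 for Rfc5, 0.47 for Mcm6 and 0.43 for Mcm3. Rrm2 was higher in Vim-KO than in WT cells with PBS and lower with LPS, while Pola2 and Cdc6 differed with LPS and did not pass with PBS. Over all genes tested, 6.96% had a more negative and 13.7% a more positive response past the threshold.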

How the results depend on the processing

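The falls with LPS were the most stable results: with each library left out in turn, 38 to 39 genes were lower at 24 h, 36 to 38 with LPS plus CTM against PBS, 40 in WT cells at 12 h and 39 to 40 in Vim-KO cells. Leaving out a library leaves its group with 1, which is assumed to vary like the other groups. The count of genes higher with LPS at 24 h was 1 after rescaling (Cdt1). For LPS plus CTM against LPS, 11 to 18 genes were higher with a library left out and 2 with a minimum log2 change of 1. The lower count of that comparison was 0 with no filter, without the trend, with the comparison's samples only, with the replicate block and with the minimum change, 2 after rescaling, and 0 to 1 with a library left out. With the minimum change 16 genes were lower with LPS plus CTM against PBS, and the counts for Vim-KO against WT and for the interaction were 0. For Vim-KO against WT with PBS, 3 to 10 genes were higher and 0 to 4 lower with a library left out, and 5 were lower with the comparison's samples only. With LPS, 7 to 9 were higher and 10 to 14 lower with a library left out, and 6 and 8 with the comparison's samples only. The lower count of the interaction was 5 to 13 with a library left out. No call changed direction in any alternative, and for counts not explained by fewer samples or a stricter limit the cause was not tested.

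In liver, with a pseudocount of 0.1, 13 listed genes were lower in WT LPS than in WT PBS, 2 with than without depletion, 7 in TG2-KO LPS than PBS and 2 in TG2-KO than WT with PBS, and 4 were higher in TG2-KO than WT with LPS. At a difference of at least 2, 2 genes were lower and 0 higher in WT LPS, 0 lower in TG2-KO LPS and 0 in TG2-KO against WT with PBS. Most listed genes were at a few TPM or less, where the pseudocount sets the size of a difference.

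Libraries with the same number did not deviate together (r from -0.219 to 0.0982 over pairs of groups), so the numbers were not taken as pairs. With the replicate block, all calls for LPS plus CTM against LPS were 2347 against 2823 without it, and 5 of the 22 calls on the 40 genes were lost. The interaction had 1835 calls against 2292, with 2 of 12 lost, and Vim-KO against WT lost 3 of 12 with PBS and 3 of 26 with LPS. A crossed pairing, added after seeing the data, gave 8460 calls against 7881 for WT LPS against PBS and 5197 against 4966 for Vim-KO against WT with LPS.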

Other observations

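Of 9 replication checkpoint genes, 7 were lower with LPS at 24 h and none higher, where 45.1% of all genes tested were lower. After rescaling 3 were lower and 1 higher, with 30.6% and 31.6% of all genes. Wee1, the kinase that holds Cdk1 inactive, went from 22.1 and 20.3 TPM to 3.88 and 3.37 TPM and was at 5.29 and 5.80 TPM under LPS plus CTM. Of 7 inhibitors of cyclin-dependent kinases, 4 were tested. Cdkn2c, which blocks the kinases of D-type cyclins, fell at 24 h from 28.0 and 26.4 TPM to 4.48 and 3.17 TPM, the direction opposite to Cdkn1a. Of 11 G1 cyclin, kinase and activator genes, 8 were lower and 3 higher with LPS at 24 h, where 45.1% of all genes were lower and 20.9% higher.

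Genotype differences also reached upstream genes. Ccnd2, a D-type cyclin, was at 8.39 and 8.84 TPM in WT and 56.4 and 69.5 TPM in Vim-KO cells with PBS (2.73 ± 0.112, limma adjusted p = 1.65e-06), far above the WT range. Foxm1, a transcription factor of mitotic genes, was at 15.1 and 16.3 TPM in WT and 5.53 and 3.73 TPM in Vim-KO cells with LPS (-1.59 ± 0.139, adjusted p = 7.56e-05). Samhd1, which degrades deoxynucleotides, fell with LPS in WT cells from 221 and 210 TPM to 164 and 180 TPM, a change of -0.32 that became 0.06 after rescaling. In Vim-KO cells it rose from 94.2 and 85.3 TPM to 180 and 189 TPM, so its LPS levels were near each other and its PBS levels were not.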
